A study of Mus musculus with 52 samples.

Results

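The genes described here are the immunoglobulin variable (V) segments of the mouse heavy chain (Ighv) and of the kappa light chain (Igkv), and how much of each chain's RNA every segment took up. A segment was included when it had at least 10 counts in at least 3 of 13 lymph node libraries, so measured lymph node counts chose the members. Of 343 Ighv and Igkv genes in the count table of 57010 genes, 209 met this rule, 104 of 183 Ighv and 105 of 160 Igkv. Among the 209, 195 are annotated as V genes and 14 as V pseudogenes, and 172 had 10 counts or more in all 13 lymph node libraries. At the edge of the rule, Ighv1-70 was included with 11, 11.2 and 20 counts in the 3 libraries that carried it over the minimum, and Ighv1-43 was left out with 56.2 and 35.1 counts in 2 libraries and at most 9 in each of the others. The members together held at least 99.8% of the Ighv counts and at least 99.98% of the Igkv counts of each lymph node library, so the shares below are shares of nearly the whole chain.

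Each B cell joins a V segment, for the heavy chain with a diversity and a joining segment, into the gene for its own antibody, and its descendants keep that choice. Plasma cells, the antibody-secreting descendants, hold far more antibody RNA per cell than resting B cells, so in RNA from a whole tissue a few large plasma cell clones can dominate the V segment counts. A repertoire in which many segments share the counts is called even, and one in which a few segments hold most of them is called uneven.

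The study measured polyA RNA in lymph node (its site is not labelled), blood, whole tumor and sorted CD45+Ly6G- tumor cells. All animals, the vehicle controls included, were hCD40tg mice, which carry a transgene for human CD40, and all bore MC38-CEACAM5 tumors, a mouse colon carcinoma line engineered to carry CEACAM5. They received vehicle, a CD40 mAb (an antibody against CD40 alone) or ATOR-4066, a bispecific antibody that binds CD40 and CEACAM5. The labels give no age, dose, time, strain or promoter of the transgene, and they do not say whether animals of a group shared a cage or a processing day, so p-values measure only the spread between these samples. The comparisons used 13 lymph node libraries (vehicle 4, CD40 mAb 4, ATOR-4066 5), 14 blood libraries (5, 5 and 4) and 13 tumor libraries (4, 5 and 4), and the sorted cells entered no comparison.

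Total counts, in M (1000000 counts), were 46.3 to 138.5 M in lymph node, 33.5 to 44.1 M in blood and 47.4 to 64.2 M in tumor, but the counts on V segments differed far more. The 13 lymph nodes gave 22450 to 488553 Ighv counts and 45823 to 815782 Igkv counts, blood 150 to 2548 and 285 to 4376, and tumor 65 to 2217 and 71 to 3156. A single segment at 1% of its chain therefore rests on many counts in lymph node and on few in blood or tumor. The rule leaves out 1 lymph node and 1 tumor library, and both went against their labels. The library labelled lymph node vehicle 3 had 45 Ighv counts and a summed level of 4.68 counts per 1000000 counts of the library (CPM) over 8 B cell markers, against 2197 to 4265 CPM in the 13 lymph nodes used. The library labelled tumor ATOR-4066 3 had 325565 Ighv counts and 2806 CPM of B cell markers, against 5.2 to 117 CPM in the 13 tumors used. Results are given without both, and values with them are stated where they differ.

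V segments resemble each other, and the deposited counts are estimates that divide reads among similar segments. Identity was computed over the coding sequence, or over the whole transcript where none is annotated. The median identity of a member to its nearest other member was 94.6% for Ighv (74.0 to 99.7%) and 94.5% for Igkv (66.4 to 98.6%). A partner at 97% or more was found for 18 Ighv and 16 Igkv members, and no pair was identical. Of the members' lymph node values, 66.9% were not whole numbers. In the whole table it was 10.98%, where a gene without counts in a library adds a whole number. A value with a fraction had some reads divided, and the percentage does not say how many. How uncertain this makes the values of single segments was not measured. Printed here with their nearest member are 3 segments with high mean shares in lymph node, Ighv9-3, Ighv8-12 and Igkv13-85. The bases on which a read could be assigned are thus visible. Each sequence is 298 to 300 bases of the coding part of the V exon on the gene's own strand (GRCm38), and capitals mark the bases that differ between the 2 segments of a pair. Ighv9-3 (chr12:114140697-114140996, minus strand) and Ighv9-2 (chr12:114109006-114109305, minus strand) differ at 17 of these bases:
Ighv9-3: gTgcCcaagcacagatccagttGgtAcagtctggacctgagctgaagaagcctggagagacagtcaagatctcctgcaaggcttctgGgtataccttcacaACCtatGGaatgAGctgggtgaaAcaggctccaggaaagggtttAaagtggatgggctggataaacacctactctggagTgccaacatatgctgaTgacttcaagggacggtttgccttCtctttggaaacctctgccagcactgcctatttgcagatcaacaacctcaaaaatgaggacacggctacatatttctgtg
Ighv9-2: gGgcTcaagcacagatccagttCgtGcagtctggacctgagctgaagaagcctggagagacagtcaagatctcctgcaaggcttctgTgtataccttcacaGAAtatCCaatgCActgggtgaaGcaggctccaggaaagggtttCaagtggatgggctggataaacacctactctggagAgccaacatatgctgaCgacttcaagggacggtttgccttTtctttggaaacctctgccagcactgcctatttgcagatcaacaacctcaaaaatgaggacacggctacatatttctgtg
Ighv8-12 (chr12:115647957-115648256, minus strand) and Ighv8-8 (chr12:115294074-115294373, minus strand) differ at 15:
Ighv8-12: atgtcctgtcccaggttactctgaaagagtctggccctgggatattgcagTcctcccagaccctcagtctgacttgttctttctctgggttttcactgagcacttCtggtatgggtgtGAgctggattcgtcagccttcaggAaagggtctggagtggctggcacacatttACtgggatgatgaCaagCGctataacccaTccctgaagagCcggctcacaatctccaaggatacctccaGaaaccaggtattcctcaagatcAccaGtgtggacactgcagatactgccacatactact
Ighv8-8: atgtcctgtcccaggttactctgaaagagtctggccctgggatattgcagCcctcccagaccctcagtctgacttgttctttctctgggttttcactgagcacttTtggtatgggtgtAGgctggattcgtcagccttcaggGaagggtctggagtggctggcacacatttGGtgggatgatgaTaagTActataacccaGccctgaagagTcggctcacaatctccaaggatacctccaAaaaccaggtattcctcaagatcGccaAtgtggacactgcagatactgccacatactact
Igkv13-85 (chr6:68930269-68930566, minus strand) and Igkv13-84 (chr6:68939770-68940067, plus strand) differ at 9:
Igkv13-85: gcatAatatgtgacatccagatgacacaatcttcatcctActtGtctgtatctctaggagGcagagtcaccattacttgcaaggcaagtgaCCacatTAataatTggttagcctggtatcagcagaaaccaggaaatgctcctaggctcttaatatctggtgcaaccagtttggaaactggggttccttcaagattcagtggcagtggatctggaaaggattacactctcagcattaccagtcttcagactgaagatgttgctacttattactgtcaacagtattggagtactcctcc
Igkv13-84: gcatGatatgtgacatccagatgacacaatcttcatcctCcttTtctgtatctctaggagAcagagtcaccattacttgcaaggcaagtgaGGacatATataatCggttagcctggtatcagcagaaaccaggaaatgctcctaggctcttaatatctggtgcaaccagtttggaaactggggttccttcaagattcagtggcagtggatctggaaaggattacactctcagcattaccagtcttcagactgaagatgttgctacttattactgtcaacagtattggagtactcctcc
In the Igkv pair the differing bases all lie in the 5′ part and the rest is shared, while in the Ighv pairs they extend further along the printed stretch. The members lie in 2 clusters of the genome, the Ighv segments at chr12:113578504-116000461 and the Igkv segments at chr6:67555497-70704177.

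In lymph node, a few segments held a large part of each chain. The 10 largest Ighv members of a library summed to 46.5 to 72.8% of its Ighv counts, and the 10 largest Igkv members to 41.3 to 75.0%. Averaged over the 3 treatment means, Ighv9-3 led the heavy chain with 13.7%, followed by Ighv14-4 (5.81%), Ighv8-12 (5.28%), Ighv1-26 (4.79%), Ighv1-82 (4.41%), Ighv1-76 (3.40%), Ighv1-64 (3.39%) and Ighv3-8 (3.30%). Igkv10-96 led the kappa chain with 10.3%, followed by Igkv13-85 (7.87%), Igkv19-93 (7.05%), Igkv6-23 (4.36%), Igkv1-135 (3.89%), Igkv6-17 (2.86%), Igkv4-57 (2.84%) and Igkv9-120 (2.70%). The exons are of similar length (338 to 501 bases, median 359), and per length Ighv9-3 held 14.2% and Igkv10-96 10.54%. These ranks describe the libraries that chose the members.

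**Figure D1:**
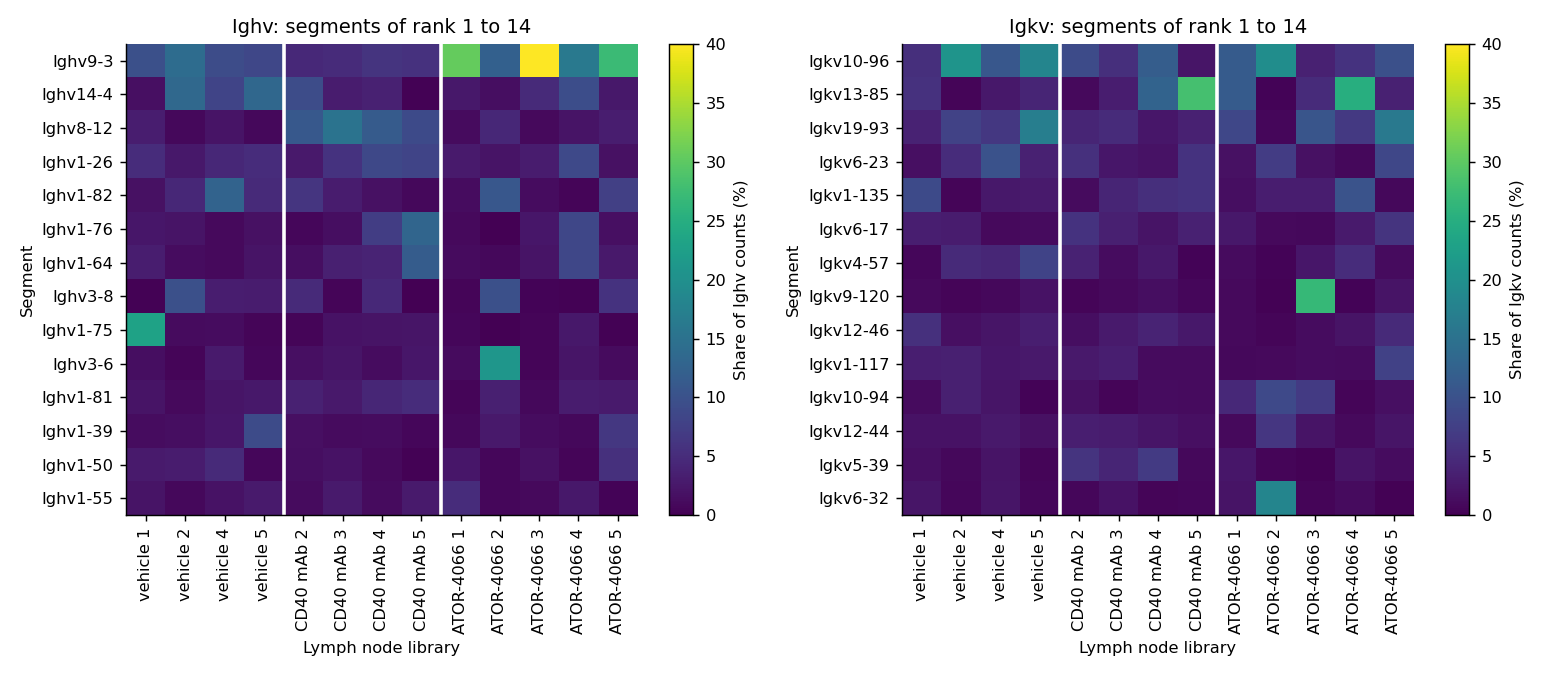
Share of the chain's counts (color, 0 to 40%) held by the 14 members of highest mean share per chain (rows) in each of the 13 lymph node libraries (columns, by treatment). Brighter cells mark higher shares. Ighv9-3 is brightest in the ATOR-4066 columns and Ighv8-12 in the CD40 mAb columns, while Igkv9-120 is bright in ATOR-4066 3 alone.

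Individual lymph nodes differed strongly in their leading segment. Across the 13 libraries, 7 different Ighv members and 6 different Igkv members held the largest share, and 9 Ighv and 8 Igkv members reached 10% in at least 1 library. Only 2 Ighv and 1 Igkv members held 1% or more in all 13. Ighv1-75 held 23.1% in vehicle 1 and at most 2.65% in the other 12 libraries. Ighv5-17 held 10.8% in vehicle 2 and at most 2.38% elsewhere. Igkv9-120 held 26.8% in ATOR-4066 3 and at most 2.07% elsewhere, so its rank among the leading kappa segments rests on that library. Ighv1-12 likewise peaked at 8.78% in ATOR-4066 5 and Igkv12-98 at 4.43% in CD40 mAb 2. Such highs of 1 animal appeared in every treatment group.

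The members of smallest p on share were Ighv9-3 in ATOR-4066 against CD40 mAb and Ighv8-12 in CD40 mAb against vehicle, and neither passed the test across all genes. Ighv9-3 (ENSMUSG00000096459) held 9.77, 14.2, 9.36 and 8.49% of Ighv counts in vehicle lymph nodes 1, 2, 4 and 5. It held 4.65, 4.89, 6.02 and 5.70% in CD40 mAb lymph nodes 2 to 5. In ATOR-4066 lymph nodes 1 to 5 it held 30.6, 12.3, 39.96, 16.1 and 27.3%. All CD40 mAb libraries lay below all vehicle libraries and below all ATOR-4066 libraries, while ATOR-4066 2, at 12.3%, lay inside the vehicle range. The group means were 10.4 ± 2.53% (SD, n = 4), 5.32 ± 0.65% (n = 4) and 25.3 ± 11.2% (n = 5). In edgeR's quasi-likelihood test of shares, the log2 difference of ATOR-4066 from CD40 mAb was 2.25 (SE 0.31), with an adjusted p of 0.0632 that missed the threshold of 0.05. The difference from vehicle was 1.27 (SE 0.30, adjusted p 0.221) for ATOR-4066 and -0.97 (SE 0.31, adjusted p 0.111) for CD40 mAb. With 1 library left out, the adjusted p of the first comparison was 0.0145 to 0.225, under the threshold only without ATOR-4066 2 (0.0145) or ATOR-4066 4 (0.0328), and DESeq2 gave 1.09e-11. Its nearest relative Ighv9-2 held at most 1.20% except in ATOR-4066 1, where it held 3.29%.

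Ighv8-12 (ENSMUSG00000076731) had its highest shares with CD40 mAb, also without passing the test. It held 3.22, 0.821, 2.15 and 0.855% of Ighv counts in the vehicle lymph nodes. In the CD40 mAb lymph nodes it held 11.1, 15.2, 11.5 and 9.004%, and in the ATOR-4066 lymph nodes 1.10, 4.51, 1.04, 2.08 and 3.15%. All 4 CD40 mAb libraries lay above all 9 others, and the vehicle and ATOR-4066 libraries overlapped. The log2 difference of CD40 mAb from vehicle was 2.75 (SE 0.57), with an adjusted p of 0.0548 in edgeR's quasi-likelihood test that was also just over the threshold (0.0565 to 0.162 with 1 library left out, 0.000206 with DESeq2). ATOR-4066 differed from CD40 mAb by -2.30 (SE 0.51, adjusted p 0.228). The relative Ighv8-8, at 94.4% coding identity, held 0.419 to 3.01% in the 13 libraries and was not high in the CD40 mAb group (0.794 to 0.979%).

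**Figure D2:**
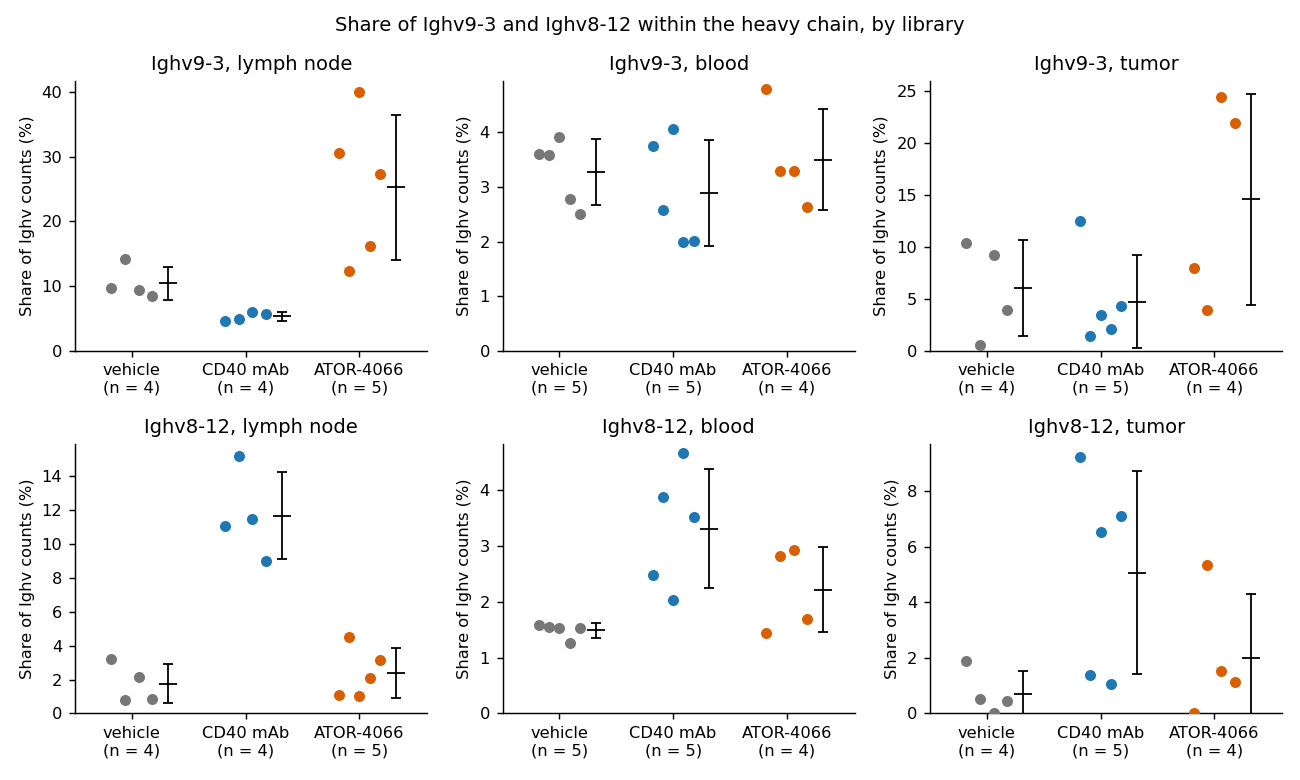
Share of Ighv counts (%) held by Ighv9-3 and Ighv8-12 in each library of lymph node, blood and tumor, by treatment; points are libraries and bars the mean ± SD (cut at 0). In lymph node the 4 CD40 mAb libraries are the lowest for Ighv9-3 and the highest for Ighv8-12.

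The other members of smallest p on share in lymph node were Igkv2-137, Igkv3-12, Ighv1-54 and Igkv1-122. Igkv2-137 (ENSMUSG00000076501) held 0.604, 0.139, 0.246 and 0.165% of Igkv counts in vehicle lymph nodes. It held 0.493, 1.48, 0.648 and 1.10% with CD40 mAb and 0.0882 to 0.155% (median 0.124%) with ATOR-4066. CD40 mAb libraries lay above all ATOR-4066 libraries, and vehicle 1 lay within the CD40 mAb range. The log2 difference of CD40 mAb from vehicle was 1.72 (SE 0.47, adjusted p 0.0843) and that of ATOR-4066 from CD40 mAb -2.92 (SE 0.44, adjusted p 0.0770). For Igkv3-12 the CD40 mAb share was 0.16 to 0.918% and the vehicle share 1.07 to 11.6%, the highest value from vehicle 1 (log2 difference -3.10, SE 0.84, adjusted p 0.0851). Ighv1-54 held 0.70 to 1.76% in vehicle and 0.104 to 0.321% in ATOR-4066 lymph nodes, groups that did not overlap (-2.46, SE 0.40, adjusted p 0.221). Igkv1-122 reached 9.58, 5.83 and 2.64% in ATOR-4066 1, 2 and 3, and 0.204 and 0.802% in ATOR-4066 4 and 5, against at most 0.412% in all 8 libraries of the other groups (4.61 against vehicle, SE 1.16, adjusted p 0.221).

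Counted over all members, no segment share passed the test in lymph node, which was edgeR's quasi-likelihood test with Benjamini-Hochberg adjustment over all genes. Of 204 members tested, 0 were called in CD40 mAb against vehicle, where 0.0536% of all 18671 genes tested were called. None, 0 of 204, was called in ATOR-4066 against vehicle (0% of all genes) or in ATOR-4066 against CD40 mAb (0.00536% of all genes). At an unadjusted p under 0.05 there were 24, 35 and 42 members, and DESeq2 called 9, 6 and 12. In tests of share, genes other than V segments were tested per all counts of the library. Here and below, the share of all genes is given only for edgeR's adjusted calls. Counts at an unadjusted p or by DESeq2 therefore do not show whether V segments stand out. The 3 comparisons share libraries, so their values stand side by side and are not independent. The median log2 difference of member shares was 0.12, -0.29 and -0.40 in the 3 comparisons, beside -0.03, -0.01 and 0.0049 for all genes tested. With the library labelled lymph node vehicle 3 kept in, the counts called stayed at 0.

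Segments of one family share sequence, and the summed shares followed their leading members. The Ighv9 family held 12.3 ± 3.00% of Ighv counts with vehicle, 6.09 ± 0.70% with CD40 mAb and 27.0 ± 12.5% with ATOR-4066. The Ighv8 family held 3.06 ± 1.34, 12.9 ± 2.8 and 3.91 ± 1.86%. Ighv1, the family with most members, held 53.6, 58.9 and 47.9%. Most of the Ighv9 sum was Ighv9-3, and most of the Ighv8 sum was Ighv8-12.

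Other leading segments varied as much within a treatment as between treatments. Ighv14-4 held 1.57 to 13.5% with vehicle, 0.25 to 9.28% with CD40 mAb and 1.42 to 9.38% with ATOR-4066. Igkv10-96 held 5.46 to 20.7, 2.33 to 11.8 and 3.70 to 19.5%. Igkv13-85 (ENSMUSG00000079543) held 0.508 to 5.77, 0.994 to 28.2 and 0.34 to 25.0%, the 2 highest values from CD40 mAb 5 and ATOR-4066 4. In those 2 libraries Ighv1-76 was also high, at 13.1 and 8.59%, and Ighv1-64 at 11.6 and 8.55%. Igkv19-93 held 3.85 to 17.2, 2.49 to 4.87 and 0.703 to 16.2%. All of these ranges overlapped between the 3 treatments. Ighv1-82 (0.518 to 12.7% over the 13 libraries) and Ighv3-8 (0.0805 to 9.76%) spread as widely.

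Some V segments are known for particular antibodies. Ighv11-2 and Ighv12-3 encode antibodies of B-1a cells to phosphatidylcholine, paired with Igkv14-126 and Igkv4-91, and Ighv7-1 with Igkv7-33 encodes natural antibodies to phosphorylcholine. In lymph node Ighv11-2 held 0.018 to 0.571%, Ighv12-3 0.0106 to 0.0772% and Ighv7-1 0.0167 to 0.527% of Ighv counts. Their sum was 0.452 ± 0.156% with vehicle, 0.390 ± 0.194% with CD40 mAb and 0.358 ± 0.194% with ATOR-4066, differences smaller than the spread. On the kappa side Igkv4-91 held 0.0899 to 1.77% and Igkv7-33 at most 0.0237%. Igkv14-126 held 0.883 to 1.98% with CD40 mAb, 0.0944 to 0.928% with vehicle and 0.0506 to 0.413% with ATOR-4066 (CD40 mAb against vehicle 1.54, SE 0.71, adjusted p 0.217). Ighv1-72, used in the response of C57BL/6 mice to the hapten NP, held 0.319 to 2.74% in 12 lymph nodes and 6.72% in ATOR-4066 4.

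Evenness was computed as Pielou's index, the Shannon entropy of the members' shares divided by its largest possible value, so that 1 means equal shares. Heavy chain evenness was 0.754, 0.706, 0.786 and 0.756 in vehicle lymph nodes and 0.785, 0.818, 0.778 and 0.723 in CD40 mAb lymph nodes. It was 0.690, 0.659, 0.615, 0.703 and 0.652 in ATOR-4066 lymph nodes. All 5 lay below the lowest library of the other groups, with ATOR-4066 4 (0.703) and vehicle 2 (0.706) close together. As an effective number of equally used segments this was 32.9 ± 4.9 with vehicle, 37.2 ± 6.6 with CD40 mAb and 22.0 ± 3.5 with ATOR-4066. Without each library's largest member the group means were 0.785, 0.798 and 0.747 and the groups overlapped. Kappa evenness was 0.756 ± 0.053, 0.784 ± 0.049 and 0.699 ± 0.039, with overlapping groups. No test was made of these scores.

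**Figure D3:**
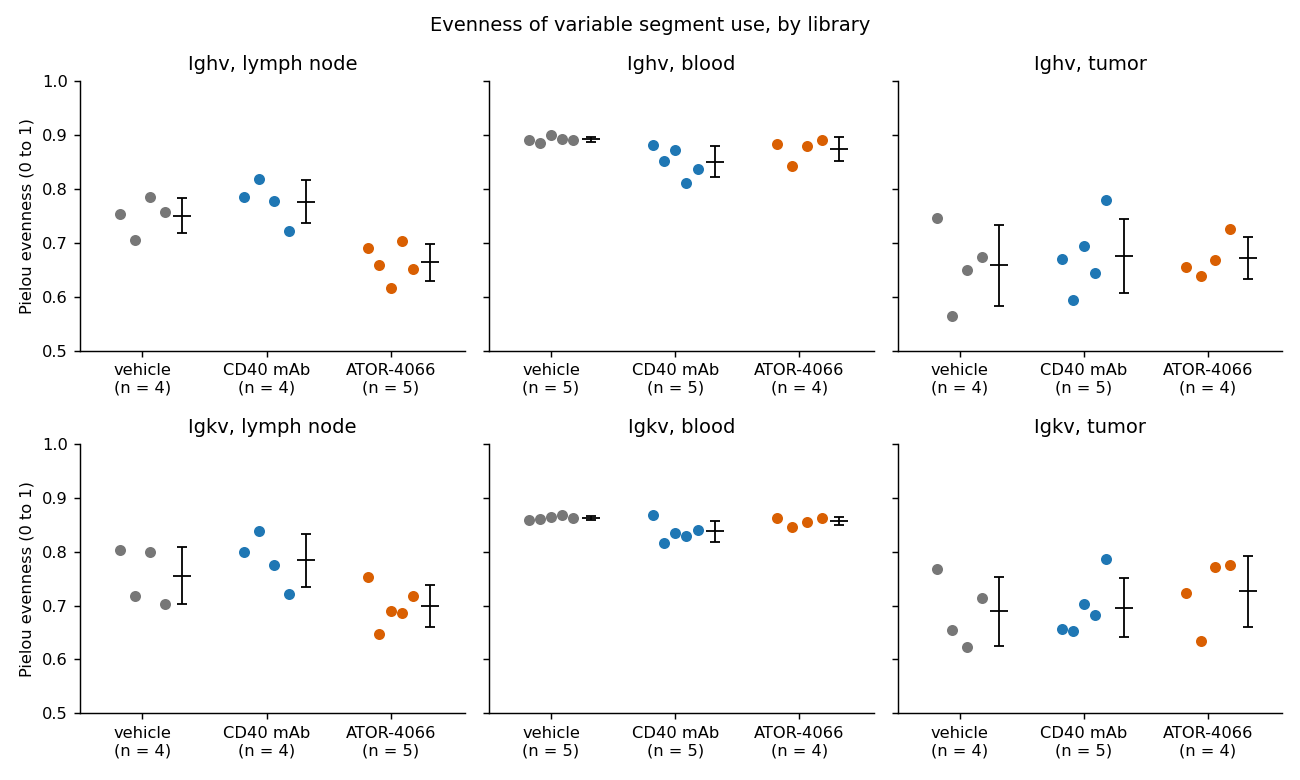
Pielou evenness (axis 0.5 to 1) of the Ighv and Igkv members per library in lymph node, blood and tumor, by treatment; points are libraries and bars the mean ± SD. Blood libraries sit highest, and in lymph node the 5 ATOR-4066 libraries are the lowest for the heavy chain.

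Levels, counted per all counts of the library and not within the chain, had another pattern in lymph node. The summed Ighv level, in TMM-scaled CPM, was 1644 ± 945 with vehicle, 3263 ± 1153 with CD40 mAb and 3955 ± 2550 with ATOR-4066. Values of single genes and marker sums are CPM without that scaling, which the test of levels did use. Igkv2-137 was higher with CD40 mAb: its level was 5.03 to 7.02 CPM in vehicle, 30.3 to 54.7 CPM in CD40 mAb and 4.22 to 12.4 CPM in ATOR-4066 lymph nodes. The log2 difference was 2.71 (SE 0.34, adjusted p 0.0194) against vehicle, and ATOR-4066 was lower than CD40 mAb by -2.37 (SE 0.31, adjusted p 0.0382). It was the only member called by level, 1 of 204 in CD40 mAb against vehicle (0.0643% of all genes), 0 of 204 in ATOR-4066 against vehicle (0% of all genes) and 1 of 204 in ATOR-4066 against CD40 mAb (0.0161% of all genes). At an unadjusted p under 0.05 there were 60, 49 and 37 members, DESeq2 called 38, 15 and 7, and the call of Igkv2-137 did not hold with the library labelled vehicle 3 kept in (0 called in both comparisons) or in every fit with 1 library left out (0 to 2 and 0 to 1 called). The median member log2 difference was 1.08 and 0.86 against vehicle for CD40 mAb and ATOR-4066, and -0.15 between the 2 agents, beside -0.02, -0.01 and 0.01 for all genes.

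Ighv8-12 stood at 14.7 to 34.5 CPM in vehicle, 184 to 494 CPM in CD40 mAb and 27.7 to 363 CPM in ATOR-4066 lymph nodes. Its level difference of CD40 mAb from vehicle was 4.15 (SE 0.87, adjusted p 0.0545). Ighv9-3 stood at 44.6 to 395, 116 to 259 and 426 to 1091 CPM, so all ATOR-4066 libraries were above all others, with an adjusted p of 0.222 against vehicle (2.21, SE 0.54). CD40 mAb and vehicle overlapped in Ighv9-3 level (-0.08), while their shares did not. Summed over 8 plasma cell markers, CPM was 720 to 2815 with vehicle, 2110 to 3859 with CD40 mAb and 2636 to 5224 with ATOR-4066. These ranges overlapped. The summed CPM of 8 B cell markers overlapped (2452 to 4074, 2453 to 3565 and 2197 to 4265). Fat markers were 589 to 1802, 68.2 to 595 and 12.1 to 934 CPM and epithelial markers 79.2 to 260, 20.1 to 85.4 and 12.4 to 152 CPM, with the highest values in vehicle nodes. Their part in the V segment results was not tested. In RNA from whole tissue, fewer cells of a type and less RNA per cell cannot be told apart.

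Constant region genes, which follow the V segment in the antibody RNA, give the class of antibody. Ighm, the mu heavy chain, stood at 1482 to 2586 CPM in vehicle, 2661 to 5415 CPM in CD40 mAb and 2226 to 2552 CPM in ATOR-4066 lymph nodes, and CD40 mAb lay above all others (log2 difference from vehicle 1.04, SE 0.21, adjusted p 0.0541). Ighg1 stood at 815 to 4559, 1196 to 6629 and 3969 to 17247 CPM (ATOR-4066 against vehicle 1.72, SE 0.61, adjusted p 0.241). Ighg2c spanned 140 to 3879, 484 to 5453 and 921 to 9979 CPM. Of the listed constant region, recombination, B cell and plasma cell genes, 0 were called in lymph node by edgeR's level test.

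In blood the V segments were used far more evenly. No member reached 10% in any of the 14 libraries, and 13 Ighv and 15 Igkv members held 1% or more in every library. The largest Ighv share of a library was 4.94 to 6.76%, against 11.1 to 39.96% in lymph node. Ighv1-26 (2.52 to 6.76%) and Igkv1-117 (3.51 to 9.23%) were among the leading members, of which Igkv1-117 was picked after its values were seen. Depth limits single values here, since the CD40 mAb libraries gave 150 to 928 Ighv counts and the vehicle libraries 1763 to 2548. The 6 largest single-library peaks relative to the median were all in CD40 mAb blood, such as Ighv1-53 at 5.33% and Ighv3-8 at 4% in CD40 mAb 4 and Ighv1-69 at 4.73% in CD40 mAb 5.

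Ighv8-12 was higher in CD40 mAb blood than in vehicle blood. It held 1.59, 1.54, 1.53, 1.26 and 1.53% of Ighv counts in vehicle blood, 2.48, 3.88, 2.04, 4.67 and 3.52% in CD40 mAb blood, and 1.45, 2.82, 2.92 and 1.68% in ATOR-4066 blood. All CD40 mAb libraries lay above all vehicle libraries, and ATOR-4066 lay between and overlapped both. These shares rested on few reads: CD40 mAb 4 had 7 of 150 counts (Wilson 95% interval 2.28 to 9.32%, counting error only) and vehicle 4 an interval of 0.871 to 1.81%. The log2 difference of CD40 mAb from vehicle was 1.04 (SE 0.28, adjusted p 0.00963, at most 0.0284 with any 1 library left out). The level of Ighv8-12 in blood did not pass the test (0.19, adjusted p 0.622).

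The shares of 3 other members passed the test in blood. Igkv4-86 held 0.288 to 0.503% of Igkv counts with vehicle and 0.478 to 1.12% with CD40 mAb, the latter from 2 to 13 counts (0.98, SE 0.32, adjusted p 0.0261). With 1 library left out its adjusted p was 0.0169 to 0.0721, over the threshold without vehicle 5 or CD40 mAb 1, 2 or 5. Ighv1-55 held 1.88 to 2.94% with vehicle and 5.92, 4.99, 3.40, 4.18 and 1.01% with CD40 mAb 1 to 5 (0.79, SE 0.29, adjusted p 0.0420). CD40 mAb 5 lay below all vehicle libraries, and without CD40 mAb 1 the adjusted p for Ighv1-55 was 0.236. Igkv8-30 was higher with ATOR-4066 (1.47, 1.10, 1.26 and 1.44%) than with CD40 mAb (0.625, 0.447, 1.11, 0 and 0.69%), with a log2 difference of 1.06 (SE 0.34, adjusted p 0.0496). That call was lost without any 1 library other than CD40 mAb 3 (adjusted p up to 0.112) and with no filter on low counts (0.112). CD40 mAb 4 had 0 of 285 Igkv counts on Igkv8-30, which allows a share of up to 1.05%, and CD40 mAb 3, at 1.11%, lay within the ATOR-4066 range. Igkv8-30 in vehicle blood was 1.05 to 1.21%.

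These are 3 of 119 members tested in CD40 mAb against vehicle, all higher, where 34.4% of all 12184 genes tested were called. In ATOR-4066 against vehicle 0 of 119 were called (0.419% of all genes, 4 members at an unadjusted p under 0.05, 0 with DESeq2), and in ATOR-4066 against CD40 mAb 1 of 119 (13.1% of all genes). The 3 called are 2.52% of the members tested, below the share of all genes. Members were tested within their chain and other genes per all counts of the library, so these percentages are of unlike measures. Of the smallest p-values in ATOR-4066 against vehicle, Ighv2-2 held 0.82 to 1.96% with vehicle and 1.77 to 3.11% with ATOR-4066, and Ighv1-7 held 1.20 to 2.11% and 0.674 to 1.21%. The sum of Ighv11-2, Ighv12-3 and Ighv7-1 in blood was 0.726 ± 0.097% with vehicle, 1.65 ± 1.30% with CD40 mAb (0.503 to 3.88%) and 1.02 ± 0.35% with ATOR-4066, and the groups overlapped. Ighv11-2 held 0.227 to 0.476% with vehicle and 0.503 to 1.29% with CD40 mAb, groups that did not overlap, but its counts were too low for the test. With as few as 150 Ighv counts in a CD40 mAb blood library, that lack of overlap can rest on single reads.

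By level, blood V segments were lower with CD40 mAb. The test called 35 of 119 members, all lower, in CD40 mAb against vehicle (34.6% of all genes), 0 of 119 in ATOR-4066 against vehicle (0.419% of all genes, 8 members at an unadjusted p under 0.05, 0 with DESeq2), and 7 of 119, all higher, in ATOR-4066 against CD40 mAb (13.1% of all genes). The 35 are a share close to that of all genes. The median member log2 difference was -0.79, -0.22 and 0.54, beside -0.05, -0.01 and 0.01 for all genes. Without CD40 mAb 1 the first count was 65 and the last 35, and without CD40 mAb 2 the first was 18. Without ATOR-4066 4 the last was 1. The 7 members were Igkv8-30 (1.56), Igkv1-117, Igkv3-4, Ighv5-16, Ighv1-22, Ighv1-26 and Ighv2-2.

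The summed blood Ighv level was 29.8 ± 2.8 TMM-scaled CPM with vehicle, 16.3 ± 7.2 with CD40 mAb and 24.2 ± 3.3 with ATOR-4066, and 59.0 ± 6.2, 10.8 ± 9.8 and 23.4 ± 7.8 CPM without that scaling. B cell markers moved the same way: the summed CPM of 8 markers was 541 to 777 with vehicle, 35.2 to 289 with CD40 mAb and 152 to 338 with ATOR-4066. By edgeR's level test with CD40 mAb the B cell receptor components Cd79a (-0.94) and Cd79b (-0.99), the surface antigen gene Ms4a1 (-0.89), the B cell transcription factor Pax5 (-1.03) and the constant regions Ighm (-0.96), Ighd (-1.001) and Igkc (-0.85) were lower than vehicle. Hemoglobin and other erythroid markers took 459231 to 679391 CPM of every blood library, and TMM factors were 1.65 to 2.35 with vehicle, 0.314 to 0.981 with CD40 mAb and 0.623 to 1.19 with ATOR-4066. The size of the level difference in blood depended on that scaling, which does not enter shares within a chain.

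Blood evenness was compared as counted and at equal depth. Heavy chain evenness was 0.892 ± 0.005 with vehicle, 0.851 ± 0.028 with CD40 mAb and 0.874 ± 0.022 with ATOR-4066. Thinned to 147 Ighv counts in every library it was 0.827 ± 0.005, 0.821 ± 0.011 and 0.819 ± 0.010. Kappa evenness thinned to 286 counts was 0.829, 0.823 and 0.826, and at equal depth the ranges of the 3 groups overlapped in both chains.

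In tumor the V segment counts were few and each library had its own leading segments. The 13 libraries had 10 different leading Ighv members and 8 different leading Igkv members, 17 and 14 members reached 10% somewhere, and none held 1% in all 13. Ighv5-15 held 20.5% and Igkv6-13 20.6% in CD40 mAb 2, Igkv3-12 20.4% in vehicle 2 and Ighv1-36 12.6% in CD40 mAb 4. Ighv1-64 held 34.5% in vehicle 2 and Ighv1-55 25.1% in vehicle 5. Several of these libraries had few chain counts in all, the lowest being 65 Ighv counts in vehicle 4.

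No member passed the test in tumor, on share or on level. Of 53 members tested on share by edgeR's quasi-likelihood test, 0 were called in CD40 mAb against vehicle (0% of all 18454 genes tested), 0 in ATOR-4066 against vehicle (1.33% of all genes) and 0 in ATOR-4066 against CD40 mAb (0.0325% of all genes). At an unadjusted p under 0.05 there were 7, 4 and 6 members, and DESeq2 called 0 in each. By level, 0 of 53 were called in each comparison (0%, 1.32% and 0.0325% of all genes), with 3, 2 and 3 members at an unadjusted p under 0.05 and 0 by DESeq2. The counts stayed at 0 with the library labelled ATOR-4066 3 kept in. Most members had too few tumor counts to be tested. Tumor heavy chain evenness thinned to 64 counts was 0.598 with vehicle, 0.621 with CD40 mAb and 0.602 with ATOR-4066, and kappa evenness thinned to 71 counts was 0.637, 0.641 and 0.650.

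The segments that led in lymph node can still be read in tumor as values. Ighv8-12 held 1.89, 0.519, 0 and 0.435% of Ighv counts in vehicle tumors, 9.24, 1.37, 6.55, 1.05 and 7.13% in CD40 mAb tumors, and 0, 5.34, 1.52 and 1.12% in ATOR-4066 tumors. The 3 highest were CD40 mAb 1, 3 and 5, and the groups overlapped (CD40 mAb against vehicle 2.41, SE 0.87, adjusted p 0.411). The 0 of vehicle 4 allows up to 4.62% and the 0 of ATOR-4066 1 up to 1.26%. Ighv9-3 held 10.4, 0.519, 9.23 and 3.91% in vehicle tumors, 12.4, 1.37, 3.43, 2.11 and 4.28% in CD40 mAb tumors, and 7.98, 3.91, 24.4 and 21.9% in ATOR-4066 tumors. The 2 highest were ATOR-4066 4 and 5. The natural antibody segments Ighv11-2, Ighv12-3 and Ighv7-1 summed to 0 to 4.35% in vehicle, 0.23 to 9.47% in CD40 mAb and 1.70 to 5.69% in ATOR-4066 tumors. Igkv17-127 held 0 to 0.792% in vehicle tumors, 0.872 to 3.12% in CD40 mAb tumors and 1.14 to 1.96% in ATOR-4066 tumors (differences from vehicle 1.93 and 1.57, adjusted p 0.411 and 0.115). The 0 is that of vehicle 4, whose 71 Igkv counts allow up to 4.23%, above all 9 treated libraries.

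Among the tumors, ATOR-4066 4 and 5 had the profiles nearest to that of the left-out library labelled tumor ATOR-4066 3, in which Ighv9-3 held 24.9%, Ighv1-82 12.8% and Igkv10-96 18.6%. The Bray-Curtis distance, 0 for equal shares and 1 for none in common, from that library to tumor ATOR-4066 4 was 0.136 for Ighv and 0.151 for Igkv, and to ATOR-4066 5 it was 0.308 and 0.288. The median between tumors of different animals of 1 treatment was 0.719 and 0.622. The chain counts of ATOR-4066 4 were 0.649% (Ighv) and 0.578% (Igkv) of those of the left-out library, and those of ATOR-4066 5 were 0.165% and 0.223%. The nearest lymph nodes were at 0.334 in Ighv (ATOR-4066 5) and 0.359 in Igkv (vehicle 5), little farther than tumor ATOR-4066 5. The cause of this likeness was not tested. With ATOR-4066 4 and 5 also left out, the tumor comparisons still called 0 members.

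**Figure D4:**
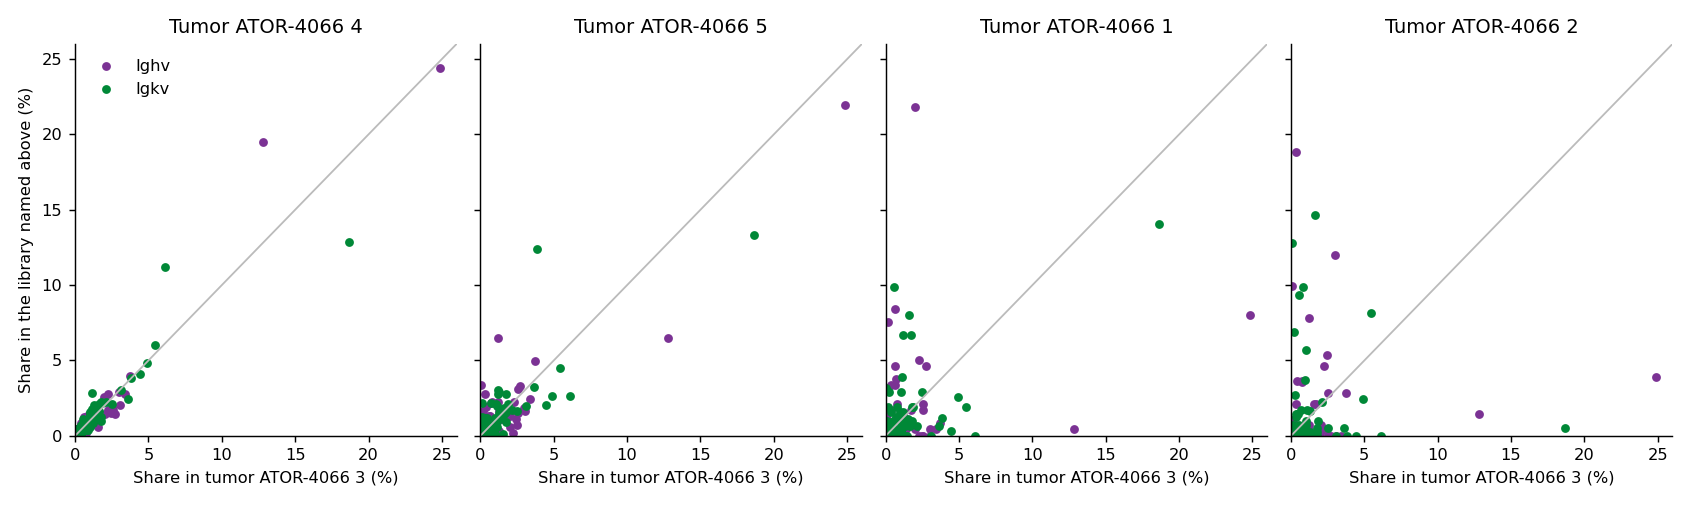
Share of each member (% of its chain) in the left-out library labelled tumor ATOR-4066 3 (x axis) against tumor ATOR-4066 4, 5, 1 and 2 (y axes); points are members, and the line marks equal shares. Points for ATOR-4066 4 lie close to the line, with Ighv9-3 at 24.9% and 24.4%, and those for ATOR-4066 1 and 2 scatter.

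Libraries of 12 animals could be compared between blood and lymph node within the animal, which the titles identify. The members were chosen by lymph node counts, 1 side of this contrast, so the balance of directions is not read. Of the 170 members tested here, some passed the count filter through their lymph node counts, since 119 passed in blood alone. Ighv9-3 was lower in blood in 12 of 12 animals, with a mean share of 3.10% against 14.8% (log2 difference -2.02, SE 0.25, adjusted p 5.24e-06). Igkv13-85 was lower in 11 of 12 (0.642% against 8.60%, -2.87, SE 0.46, adjusted p 8.32e-05), as were Ighv14-4 (1.10% against 6.03%, -2.29) and Igkv4-57 (0.826% against 2.98%, -1.74). Igkv19-93 (3.84% against 7.69%), Ighv3-8 (0.809% against 2.77%) and Ighv9-2 (0.397% against 0.773%) were the other 3 lower members. In the other direction Igkv1-110 was higher in blood in 12 of 12 animals, at 4.74% against 1.57% (1.74, SE 0.17, adjusted p 1.80e-07). Ighv10-1 was higher in 11 of 12, at 1.23% against 0.362% (2.16, adjusted p 4.97e-05). Rarer segments with larger differences included Ighv2-6 (2.80), Ighv5-15 (2.61), Igkv10-95 (2.51), Ighv2-5 (2.50) and Ighv1-2 (2.47).

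In all, 98 of 170 members differed between blood and lymph node (91 higher and 7 lower in blood), where 75.8% of all 16012 genes tested were called. Shares of a chain sum to a fixed total, and the split depended on the scaling: with TMM scaling within the chain 50 were called, 15 higher and 35 lower.

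**Figure D5:**
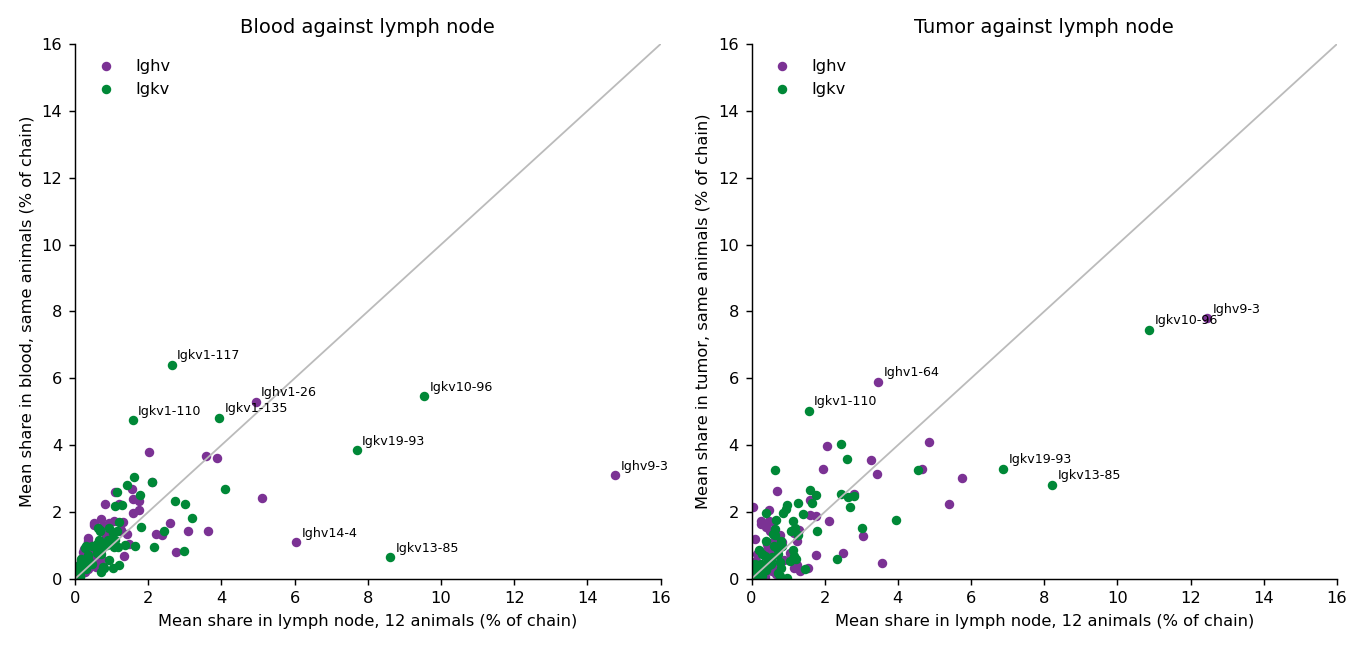
Mean share of each member (% of its chain, linear axes) in blood (left) and tumor (right) against lymph node. Each panel covers 12 animals with both libraries, and the diagonal marks equal shares. Ighv9-3 and Igkv13-85 lie below the diagonal in both panels and Igkv1-110 above it.

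Tumor and lymph node were compared in the same way in 12 animals, with the same limit on the choice of members. Of the 172 members tested, many passed the count filter through their lymph node counts, since 53 passed in tumor alone. Tumor libraries had 65 to 2217 Ighv and 71 to 3156 Igkv counts, so a low tumor share can rest on few or no reads. Falls of members rare in tumor, such as Igkv4-80 below, are given as values only, and the balance of directions is not read. Igkv1-110 was higher in tumor as in blood, at 5.03% against 1.56% and in 10 of 12 animals (1.60, SE 0.31, adjusted p 0.000306). Igkv8-19 was higher in 9 of 12 (3.26% against 0.639%, 1.97, adjusted p 0.00341). Ighv5-15 had the largest difference (3.30, adjusted p 0.0407) but was higher in only 4 of 12 animals, with 20.5% in CD40 mAb 2. Igkv13-85 was lower in 10 of 12 (2.81% against 8.22%, -1.62, SE 0.51, adjusted p 0.0110), Igkv4-80 in 11 of 12 (0.034% against 0.961%, -2.94) and Igkv10-94 in 11 of 12 (0.579% against 2.33%, -1.29). Ighv9-3, outside the 8 largest falls, was lower in 10 of 12 (7.79% against 12.4%, -0.79, SE 0.31, adjusted p 0.0359). In all 25 of 172 members differed, 10 higher and 15 lower, where 73.8% of all 17905 genes tested were called, and with TMM scaling within the chain 62 were called, 2 higher and 60 lower.

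The own lymph node of an animal was the nearest of the 13 lymph nodes to its blood or tumor in few cases. The median Ighv distance of blood to the same animal's lymph node was 0.462, and to lymph nodes of other animals of the same treatment 0.466. For tumor the medians were 0.612 and 0.582. In each chain the own node was the nearest lymph node for 1 of 12 blood and 3 of 12 tumor libraries. With 13 lymph nodes to choose from, few such matches arise by chance alone, and whether these exceed chance was not tested. The closest of these pairs was tumor CD40 mAb 5, at 0.263 from its own node in Ighv, a tumor library with 656 CPM of T cell markers and 760 CPM of fat markers. Lymph nodes of different animals of 1 treatment lay at a median of 0.416 in Ighv and those of different treatments at 0.498, while in Igkv the medians were 0.442 and 0.462. Blood libraries were the most alike, at 0.223 and 0.253 in Ighv.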

How the data were processed

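Gene-level estimated counts for 57010 genes were deposited by the authors in 1 table, made with salmon per the table's name, after STAR alignment to GRCm38 per the submitters' processing notes. PolyA RNA was made into stranded mRNA libraries, per the labels' protocols. The annotation used by the authors is not given in the sources used here, and neither is how reads of near-identical segments were divided. Libraries had no molecular identifiers stated, so intervals and floors of 3 counts cover counting error only. Coordinates and sequences come from GENCODE vM21 and the GRCm38 genome, in which all 209 members were found by gene identifier.

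Groups follow the treatment labels. Counts were rounded to whole numbers and genes passing filterByExpr in a tissue were fitted with edgeR 4.0.16 (glmQLFit and glmQLFTest, robust) in R 4.3.3, with Benjamini-Hochberg adjustment over all genes and a threshold of 0.05. For shares, the offset of an Ighv or Igkv gene was the library's Ighv or Igkv total, and for other genes the TMM library size; for levels it was the TMM library size throughout. Members passing the filter numbered 204 of 209 in lymph node, 119 in blood and 53 in tumor, 170 in blood with lymph node and 172 in tumor with lymph node. Tissue comparisons kept the animal, read from the titles, as a block. Equal replicate numbers in different treatments name different animals. The fits were also run on simulated counts with the same setting of spread for every gene. That run does not cover the large differences of V segments between animals.

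Members, gene lists and tests were chosen with earlier results of these data known. Named segments are the 8 of highest mean lymph node share per chain, up to 8 called members per direction with a mean share of 0.2% or more (or the 3 of smallest p), the 3 largest single-library peaks of 3% or more per tissue and chain, and the natural antibody segments with Ighv1-72. Alternatives were DESeq2 1.42.0, TMM within the chain, no filter, a replicate block, thinning to equal chain counts, a member minimum of 50 counts, keeping in the libraries left out, and leaving out each library. After the data were seen, leaving out each animal in tissue comparisons, and tumor ATOR-4066 4 and 5, were added.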

Additional observations from a re-analysis of the deposited data

Results flagged for a closer look

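For 7 members (Ighv9-3, Ighv8-12, Ighv1-55, Igkv2-137, Igkv4-86, Igkv8-30 and Igkv14-126) the libraries of each group of 4 or 5 were checked for a sample far from the rest, by the gap to its nearest neighbor relative to the group's range. Of 63 groups, 8 had such a sample, where chance gives about 1 in 20 if values are normally distributed. Skewed shares from few counts do not meet that, so 8 of 63 is not read as an excess over chance. In tumor, vehicle 5 held 25.1% Ighv1-55, 4.83% Igkv14-126 and 1.49% Igkv4-86, each far above the other vehicle tumors, vehicle 1 was the only vehicle tumor with a count of Igkv2-137 (0.697%, while the 0 of vehicle 2, 4 and 5 allows up to 0.737, 4.23 and 1.12%), and CD40 mAb 1 stood apart in Ighv9-3 (12.4%). In blood, CD40 mAb 4 stood apart in Igkv14-126 (2.46%, from 285 Igkv counts) and vehicle 4 was low in Ighv8-12 (1.26%). In lymph node, vehicle 1 was high in Igkv4-86 (0.325%). Evenness had 0 such samples in 18 groups.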

How the results depend on the processing

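Alternatives are given as the number of members called beside the number reported. With DESeq2, share calls in lymph node were 9 for CD40 mAb and 6 for ATOR-4066 (each against vehicle) and 12 between the agents, where 0 were reported, and level calls were 38, 15 and 7 where 1, 0 and 1 were reported. With no filter, level calls in lymph node were 2 for CD40 mAb against vehicle and 0 between the agents, and the share call in blood between the agents was 0. With the library labelled lymph node vehicle 3 kept in, both level calls in lymph node were 0. TMM within the chain gave 50 against 98 for blood with lymph node and 62 against 25 for tumor with lymph node. The cause of these differences was not tested.

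With the replicate number as a block, level calls were 21 against 35 (blood, CD40 mAb against vehicle), 0 against 7 (blood, between the agents) and 0 for both lymph node comparisons with 1, and share calls in blood were 1 (Ighv8-12, adjusted p 0.0223) against 3 and 0 against 1. Equal numbers did not pair libraries of different treatments: correlations of their deviations were -0.386 to 0.311 over 11 pairs in lymph node, -0.223 to 0.136 over 13 in blood and -0.343 to 0.360 over 12 in tumor.

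Leaving out 1 library gave 18 to 65 level calls in blood for CD40 mAb against vehicle and 1 to 35 between the agents. The first was 65 without CD40 mAb 1, 18 without CD40 mAb 2, 19 without vehicle 2, 20 without CD40 mAb 5, 21 without CD40 mAb 4 and 22 without vehicle 5. Level calls in lymph node were 0 to 2 for CD40 mAb against vehicle and 0 to 1 between the agents. Share calls in blood were 1 to 5 (1 without vehicle 5, 5 without CD40 mAb 3) and 0 to 2, and in lymph node 0 to 1 between the agents, the 1 being Ighv9-3 without ATOR-4066 2 or 4.

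The heavy chain evenness difference in lymph node from vehicle was 0.025 for CD40 mAb and -0.087 for ATOR-4066. It was 0.071 and -0.042 with the left-out library kept in, and -0.037 for ATOR-4066 without the largest member. ATOR-4066 differed from CD40 mAb by -0.112, and by -0.050 without the largest member. In blood, CD40 mAb differed from vehicle by -0.041 (Ighv) and -0.025 (Igkv) as counted and by -0.0068 and -0.0058 at equal depth, and ATOR-4066 from CD40 mAb in Igkv by 0.019 and 0.0028. For the 7 members recomputed under these alternatives (12 lymph node or blood treatment differences of share), no log2 difference changed sign, nor did a lymph node evenness difference. Depth limits blood and tumor most, where a typical segment rests on few counts.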

Other observations

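Sorted CD45+Ly6G- tumor cells, whose titles carry other animal numbers than the whole tumors, entered no comparison. Their 10 libraries held 27 to 4171 Ighv counts. A single segment led most of them: Ighv1-76 held 65.9% in ATOR-4066 6, Ighv1-9 63.7% in ATOR-4066 10, Ighv1-69 57.4% in vehicle 7 and Ighv7-1 46.5% in vehicle 10. The effective number of Ighv members was 2.62 to 11.5 in 9 libraries and 28.6 in ATOR-4066 9.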
